A study of Zea mays with 12 samples.

Results

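Polysome-associated RNA of the maize inbred line Mo17 was set against the RNA-seq libraries of the same line, gene model by gene model, in 2 libraries of each kind. A gene model (identifier Zm00014a) was kept where 2 or more of the 4 libraries reached an FPKM of 1, which left 20208 of 37843. FPKM gives fragments relative to the length of the gene and the size of the library. All 4 libraries came from seedlings 14 days old, under a cycle of 16 h light (28 °C) and 8 h darkness (25 °C). No treatment, transgene or mutation is named in the labels, and both kinds of library are labelled as polyA RNA, so that "total RNA" here means polyA RNA not selected on polysomes. The labels do not say whether replicates came from separate plants, and p-values then measure only the spread between these libraries, which may be technical. In bulk tissue, fewer cells of a type and less RNA per cell cannot be told apart.

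An mRNA that is being translated carries several ribosomes at once, and such complexes, the polysomes, are recovered apart from free RNA by their size. The level of a transcript in polysomal RNA relative to its level in the RNA as a whole is a common measure of how much of it is engaged by ribosomes. The modification N6-methyladenosine (m6A) is laid on internal adenosines of mRNA and is read by proteins that act on RNA stability and translation. The deposited Mo17 tables hold identifiers and positions without gene names, so gene models are described by chromosome, span, level and m6A peaks. Positions are as the Mo17 tables list them, with no build named.

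FPKM summed to 665885 and 669811 for RNA, and to 800399 and 793281 for polysome RNA, so that the values do not add up to a common total. FPKM carry no depth, and the number of reads behind a value is unknown. Between 13060 and 13877 gene models were listed at 0 in each library. Over the gene models tested, Pearson r of log2(FPKM + 1) was 0.968 between the RNA replicates, 0.984 between the polysome replicates and 0.899 to 0.906 across kinds. These correlations are across genes, which are not independent replicates.

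Of the 20208 gene models, 1024 (5.07%) were higher and 3351 (16.6%) were lower in polysome RNA by limma, at an adjusted p below 0.05 and a log2 ratio of at least 1 either way on the log2(FPKM + 1) scale. Among those tested, 1179 passed the filter through the 2 RNA libraries alone and 184 through the 2 polysome libraries alone. For these the filter fixed the direction of the ratio, and how many of them were called is not given here. The median log2 ratio was −0.36 ± 0.0020 (SD over the 2 replicate numbers), and it lay between −0.42 and −0.30 in the 4 pairings of a polysome with an RNA library. The replicate numbers mark no known pairing, so an SD over them covers 1 of the possible matchings of these libraries. Most changes were small: the median size was 1.22 among the higher and 1.28 among the lower gene models. A log2 size of at least 2 was reached by 33 higher and 192 lower gene models. In all 1024 higher and all 3351 lower gene models the polysome and RNA libraries did not overlap, against 4735 of all tested with both polysome libraries above both RNA libraries (23.4%) and 11259 with both below (55.7%).

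The split between higher and lower calls rested on the scaling. When the libraries were scaled to a median log ratio near 0, the median ratio moved by more than 0.1 to −0.0017, and 2446 gene models (12.1%) were higher and 1362 (6.74%) lower. With the FPKM of each library brought to an equal sum, the median was −0.60, and 517 (2.56%) were higher and 5819 (28.8%) lower. Calls that held under the deposited values and both scalings numbered 514 higher and 1362 lower. Each scaling divides a library by a constant and so shifts all ratios nearly alike. These calls are therefore largely those at the strictest cutoff each way, not an independent check. These 514 higher gene models had a median span of 2479 bp and a median FPKM of 14.2 in RNA and 38.1 in polysome RNA. The 1362 lower ones had a median span of 4231 bp and a median FPKM of 9.998 in RNA and 2.40 in polysome RNA. The contrasts by level and by span, described further on, kept their direction under both scalings, which a shift nearly alike in most ratios could hardly change. The size of the level contrast did move, from 0.81 to 1.05 with the median log ratio set near 0 and to 0.76 with equal sums.

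**Figure D1:**
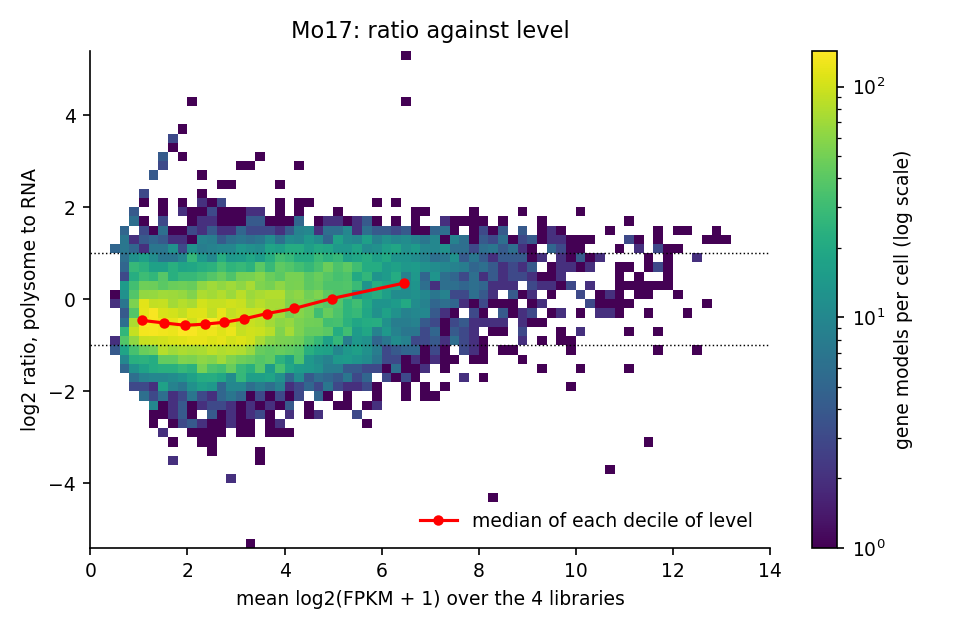
Log2 ratio of polysome to RNA FPKM (y axis, on the log2(FPKM + 1) scale) against the mean level of each of the 20208 Mo17 gene models (x axis, mean log2(FPKM + 1)). Colour gives the number of gene models per cell on a log scale, and red points give the median of each decile of level, with dotted lines at the size threshold. The medians lie below 0 at low levels and reach 0.35 in the highest decile.

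Polysome RNA was concentrated in fewer gene models than RNA. The 10 most abundant gene models of each library held 8.61% and 8.93% of all FPKM in RNA, and 12.0% and 11.8% in polysome RNA. It took 410 and 360 gene models to reach 50% of the sum in RNA, against 205 and 195 in polysome RNA. Both polysome libraries were therefore more concentrated than both RNA libraries, without overlap. An exact permutation test on 2 against 2 libraries cannot give a two-sided p below 0.333, so no test of these shares was made. In the inbred line B73, measured by the same 2 kinds of library, the number that reached 50% of the sum was 198 and 221 in RNA and 281 and 175 in polysome RNA, where the kinds overlap. The 10 most abundant of B73 held 17.3% and 17.9% in RNA and 11.7% and 12.3% in polysome RNA. That is the reverse of Mo17, also without overlap, but the B73 share in RNA rested in large part on its most abundant gene model. The highest FPKM in B73 was 44698 and 47190 in RNA, of sums of 452783 and 438866. In polysome RNA it was 16018 and 14504, of sums of 673882 and 693258. The 100 most abundant of B73 held 42.1% and 41.1% in RNA and 36.7% and 42.4% in polysome RNA, where the kinds overlap.

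**Figure D2:**
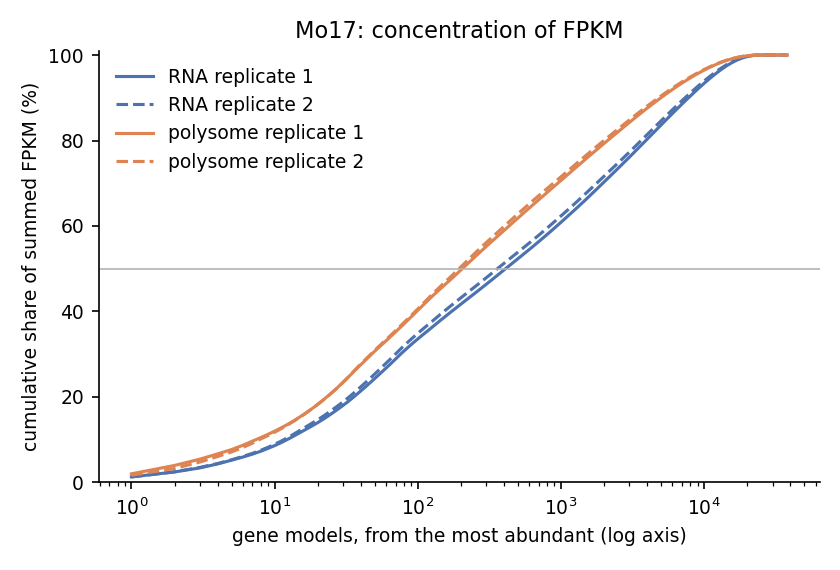
Cumulative share of the summed FPKM (y axis, percent) against the number of Mo17 gene models counted from the most abundant (x axis, log scale), one line per library. The polysome lines lie above the RNA lines and cross 50% at 205 and 195 gene models, against 410 and 360.

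The most abundant gene models in RNA differed in their ratios. The first, an 81 bp model on the minus strand at chr2:104795003-104795083, had an FPKM of 8684 and 8672 in RNA and of 1059 and 960 in polysome RNA. It was lower by limma (adjusted p = 0.00030), at a log2 ratio of −3.10 ± 0.08 (SE). The fourth, at chr9:39641980-39643041, had 6304 and 5830 in RNA and 489 and 475 in polysome RNA. Its log2 ratio was −3.65 ± 0.08 (limma adjusted p = 0.00019), and it ranked 227 in polysome RNA.

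Smaller differences were seen in other models of this list. The second most abundant in RNA, at chr1:182258993-182259932, had 7650 and 7975 in RNA and 3976 and 3627 in polysome RNA, a log2 ratio of −1.04 that missed the threshold of size with the median ratio set near 0 (−0.60) and without polysome replicate 2 (−0.97). The eighth, a 10307 bp model at chr6:144803807-144814113, had 4493 and 4777 in RNA and 2193 and 2389 in polysome RNA. Its log2 ratio of −1.02 also missed the threshold under the first scaling (−0.58), with equal sums over all but the most abundant 1% (−0.99), without RNA replicate 2 (−0.97) and without polysome replicate 1 (−0.95). In both models the RNA libraries lay above the polysome libraries without overlap, as in all called lower and in 55.7% of all tested. The third in RNA, at chr7:147932432-147933220, did not pass the test: it had 6217 and 6841 in RNA and 6236 and 6148 in polysome RNA.

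In polysome RNA the list was led by gene models that were also abundant in RNA. The first, a 282 bp model at chr8:168979032-168979313, had 5790 and 6118 in RNA and 16098 and 13406 in polysome RNA, and its log2 ratio was 1.30 ± 0.11 (SE, adjusted p = 0.00074 by limma). The second, at chr10:8522426-8523368, had 4537 and 4849 in RNA and 15709 and 12473 in polysome RNA, with a log2 ratio of 1.58 ± 0.12. The third, a 600 bp model at chr1:294976604-294977203, had 4459 and 4684 in RNA and 11706 and 11925 in polysome RNA. In these 3 models every polysome library lay above every RNA library, as in all gene models called higher and in 23.4% of all tested.

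Of the 10 most abundant in polysome RNA, 7 were called higher and 0 lower, and of the 10 most abundant in RNA, 3 were higher and 4 lower. Each list was chosen on the level in its own kind, which favours calls in that direction, and among all tested 5.07% were higher and 16.6% lower. Of those 7, the calls of the fourth and the tenth missed the threshold of size with equal sums (0.96 and 0.77). The tenth also missed it without RNA replicate 1 (0.998) and without polysome replicate 2 (0.95). The next, of polysome rank 5, at chr5:178988338-178988652, had 4199 and 4317 in RNA and 8059 and 8527 in polysome RNA. Its log2 ratio of 0.96 was just short of the threshold, which it passed without polysome replicate 1 (1.0018) and under the scaling to a median log ratio near 0 (1.40). The lists of the 2 kinds shared 4 of 10 gene models, 80 of 100 and 760 of 1000. The RNA list of 10 held 8.57% and 8.93% of the sum in RNA and 8.39% and 7.57% in polysome RNA, whereas the polysome list held 6.25% and 6.56% in RNA and 12.0% and 11.8% in polysome RNA.

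**Figure D3:**
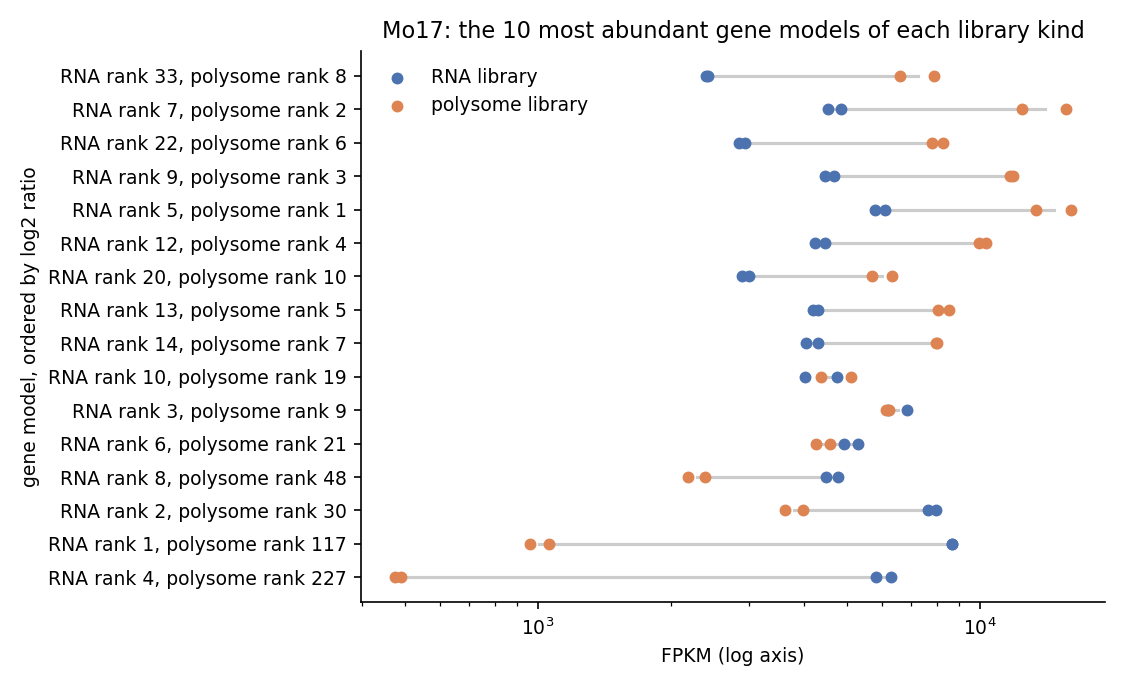
FPKM (x axis, log scale) of the 10 most abundant Mo17 gene models of RNA and of polysome RNA, 1 row per gene model ordered by log2 ratio and named by its ranks, with 1 point per library and a grey line between the means. The model of RNA rank 1 sits at 8684 and 8672 in RNA and at 1059 and 960 in polysome RNA, and the model of polysome rank 1 at 5790 and 6118 against 16098 and 13406.

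The ratio was higher among abundant gene models. The median log2 ratio was −0.46 in the lowest decile of mean level, −0.56 in the third decile, 0.02 in the ninth and 0.35 in the highest. The highest decile minus the lowest was 0.81, with 0.81 to 0.88 in the 4 pairings of libraries and 0.75 to 0.89 with 1 library left out. The size of this contrast rested on the handling of low values: it was 0.31 with no filter, 1.38 at an FPKM of at least 5 and 1.22 with a pseudocount of 0.1. Of the 2021 gene models in the highest decile, 404 (19.99%) were called higher and 160 (7.92%) lower, against 5.07% and 16.6% of all tested. In the third decile, 23 (1.14%) were higher and 413 (20.4%) lower. Level is the mean over both kinds, so that a gene model high in either kind enters a high decile, and the pseudocount holds ratios of low gene models near 0.

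Longer gene models had lower ratios. A span runs from the start to the end of the gene model, introns included. The median log2 ratio was 0.02 ± 0.13 in the shortest decile (27 to 696 bp), −0.25 in decile 5 and −0.70 ± 0.11 in the longest (10711 to 146217 bp). The longest decile minus the shortest was −0.72 ± 0.24, from −0.89 in replicate number 1 and −0.55 in number 2, and it was −0.47 with no filter and −0.92 at an FPKM of at least 5. Called lower were 13.1% of the shortest and 28.6% of the longest decile, and called higher were 7.62% and 1.53%. Among the 572 gene models of 20004 bp and more, 225 (39.3%) were lower and 5 (0.874%) higher, against 16.6% and 5.07% of all tested. Across genes, the Spearman correlation of ratio and span was −0.22 over 20208 gene models, which share the 4 libraries.

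The span difference was present at every level. Within quintiles of mean level, the longest tercile of span minus the shortest was −0.28 ± 0.16 in the lowest quintile and −0.50 ± 0.11 in the highest, and it was negative in both replicate numbers in all 5. At the short end the relation was not steady. The 127 gene models of 27 to 198 bp had a median of −0.28, at a median level of only 1.63 FPKM. Of them 11 (8.66%) were called higher and 35 (27.6%) lower, against 5.07% and 16.6% of all tested. In contrast, 807 longer ones, with a median span of 402 bp and none above 498 bp, had a median of 0.12. In B73 the 223 shortest gene models, with a median span of 74 bp, had a median of −2.28, with 172 called lower, on a background of 3.54% lower and 17% higher among 18878 tested. The B73 contrasts were −0.70 ± 0.07 for span and 0.94 ± 0.12 for level, with spans and annotation of their own, and no test was made between the lines.

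**Figure D4:**
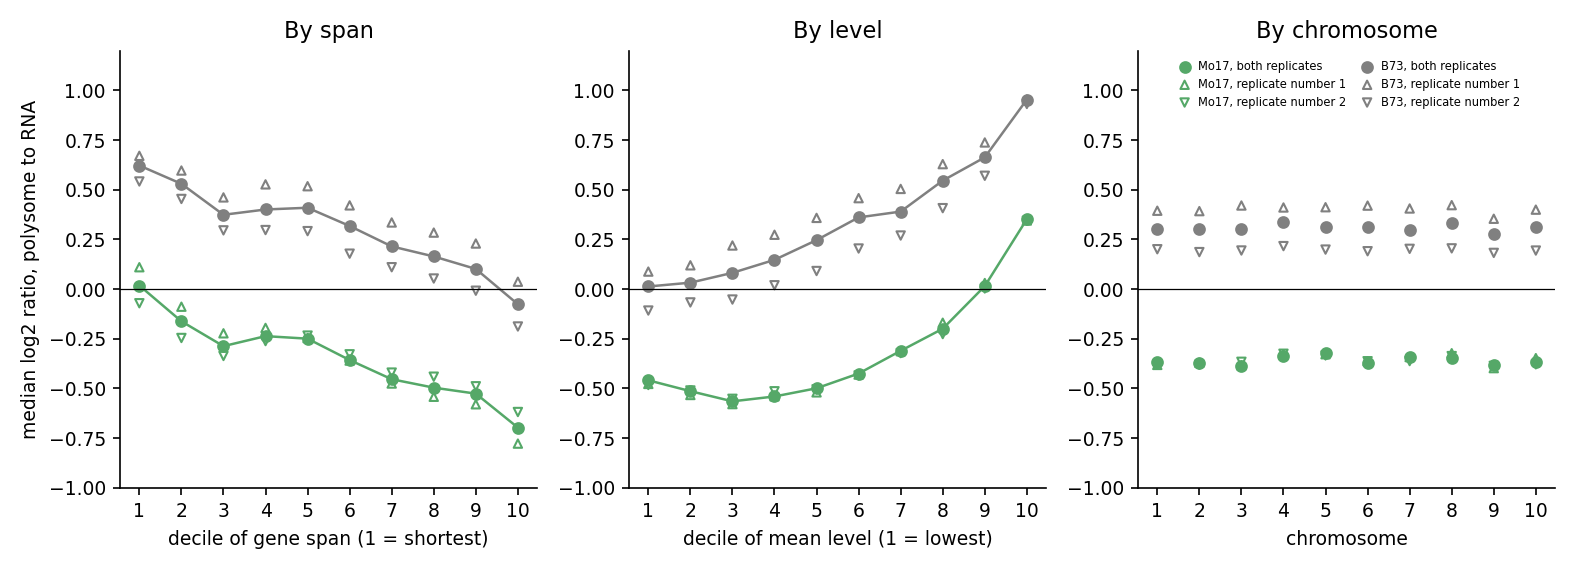
Median log2 ratio of polysome to RNA FPKM (y axis) by decile of span, by decile of mean level and by chromosome, for Mo17 and B73, with the value from both replicates (filled) and each replicate number (triangles). In Mo17 the median goes from 0.02 to −0.70 along span and from −0.46 to 0.35 along level, and it stays between −0.39 and −0.32 over the chromosomes.

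Position on the chromosomes made little difference. Chromosome medians ran from −0.39 on chromosome 3, with 2227 gene models, to −0.32 on chromosome 5, with 2398, a range of 0.065, and the same pair of chromosomes differed by 0.032 to 0.057 in the 4 pairings of libraries. Called lower were between 15.4% (chromosome 8) and 17.9% (chromosome 6), near the 16.6% of all tested. By distance from the nearer end of the chromosome's gene models, medians were between −0.40 and −0.35. The median was −0.35 for the plus strand and −0.37 for the minus strand. The 1777 gene models whose span overlapped one on the opposite strand had a median of −0.31 against −0.36 for the other 18431. No source used here gives the strand setting of the counting, so reads of such pairs may be shared between them.

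Neighbouring gene models shared a call at rates near the background. The next tested gene model was also higher after 71 of 1024 higher ones (6.93%, against 5.07%), and also lower after 619 of 3350 lower ones (18.5%, against 16.6%). The longest run of consecutive higher calls held 4 gene models, at chr4:38770361-39040651, and 3 runs of lower calls held 6 each.

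The share of gene models with m6A peaks was larger among the higher than among the lower calls in each tercile of span, and largest in difference in the middle one. Peaks came from the 2 Mo17 m6A-seq samples, made from total RNA, and a gene model was counted as carrying m6A where a summit of each list lay in its span and in no other. Over all spans, 548 of 1024 higher gene models (53.5%) and 1247 of 3351 lower ones (37.2%) had a peak in both lists, against 8343 of all tested (41.3%). In the middle tercile of span the shares were 300 of 394 (76.1%) and 234 of 969 (24.1%), against 45.9%. No test of these shares was made. In the shortest tercile they were 24.3% and 2.84%, against 6.71%. In the longest tercile they were 81.8% and 65.7%, against 71.2%. The calls that held under both scalings are largely those at the strictest cutoff each way. Among them, the middle tercile had peaks in 149 of 194 higher gene models (76.8%) and 48 of 345 lower ones (13.9%).

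Set out by m6A state, the middle tercile of span had a median log2 ratio of −0.08 ± 0.04 in 3095 gene models with a peak in both lists and of −0.55 ± 0.03 in 2988 with none. The difference was 0.46, with 0.41 to 0.51 in the 4 pairings of libraries. In the shortest tercile the medians were 0.56 ± 0.003 with peaks (452 gene models) and −0.21 ± 0.11 without (6043). Over the 4 pairings of libraries these medians ran from 0.49 to 0.61 with peaks and from −0.30 to −0.14 without. In the longest they were −0.52 ± 0.09 (4796) and −0.67 ± 0.05 (1387), a smaller gap. Level moved with m6A state: in the middle tercile the median level was an FPKM of 12.5 with peaks and 4.55 without. The middle tercile of span was also divided by tercile of level. At the highest, 237 of 296 higher (80.1%) and 96 of 287 lower gene models (33.4%) had peaks, against 61.4% of all. At the middle one they were 43 of 55 (78.2%) and 105 of 375 (28.0%), against 48.7%. At the lowest they were 20 of 43 (46.5%) and 33 of 307 (10.7%), against 23.8%. These 43 higher gene models had a median FPKM of only 0.681 in RNA.

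**Figure D5:**
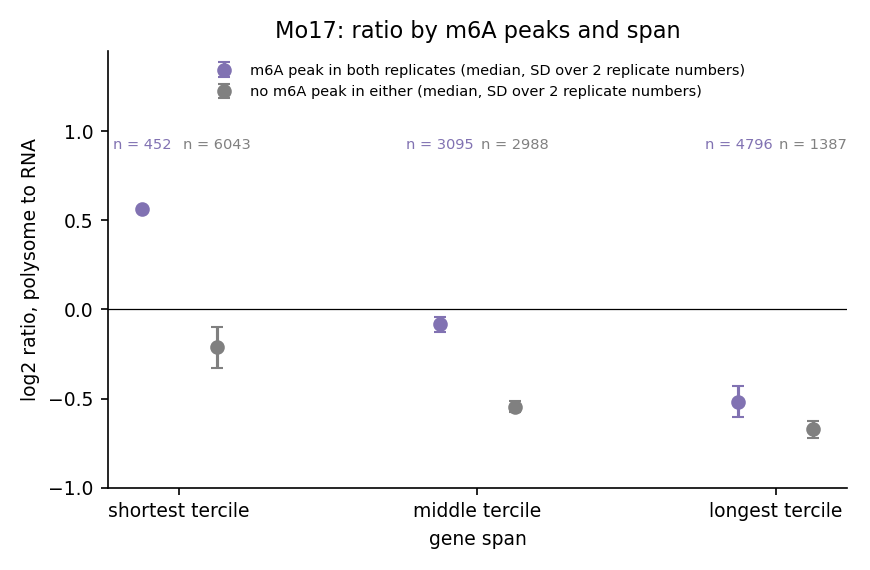
Median log2 ratio of polysome to RNA FPKM (y axis) by tercile of span for Mo17 gene models with an m6A peak in both lists and with none, with the SD over the 2 replicate numbers as bars and the number of gene models above. The medians with peaks lie above those without in each tercile, by 0.46 in the middle one.

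Few of the 100 most abundant transcripts of either kind had m6A peaks. Of the 100 most abundant in RNA, 1 had a peak in both lists and 99 had none, and of the 100 most abundant in polysome RNA, 0 had a peak in both and 99 had none. Among the 1000 most abundant, 25.8% in RNA and 31.0% in polysome RNA had a peak in both lists. Most of the lists of 100 were short, with 82 and 88 of span up to 2000 bp. Among all tested gene models of span up to 2000 bp, 288 of 5874 (4.90%) had a peak in both lists. In the shortest tercile of span and the highest of level, 297 of 2457 (12.1%) had such peaks.

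Of the 10 called gene models with the highest ratios, 9 were listed at 0 in both RNA libraries, so that no fold is given. Zm00014a_014255, at chr8:38931020-38932899, was listed at 0 in both RNA libraries and had an FPKM of 17.4 and 17.5 in polysome RNA. Zm00014a_005275, at chr10:122023340-122028212, was listed at 0 in RNA and had 12.8 and 12.0 in polysome RNA. The exception, at chr8:132292123-132295141, had 0 and 0.685 in RNA and 11.6 and 10.02 in polysome RNA. All 10 passed the filter through the polysome libraries alone, so that their calls are given as a description. They were low, at most 17.5, and 3 of them had an m6A peak in both lists. The m6A lists came from total RNA, so a listed 0 does not show that a transcript was absent from RNA.

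The 10 lowest ratios among called gene models came from models of very unequal level. Zm00014a_038392, at chr5:3213616-3214998, had an FPKM of 60.2 and 66.3 in RNA and 1.08 and 0.417 in polysome RNA, and its log2 ratio was −5.23 ± 0.21 (SE, adjusted p = 0.00066 by limma). Zm00014a_022197, a 561 bp model at chr5:104661336-104661896, had 1405 and 1435 in RNA and 78.2 and 59.8 in polysome RNA, and its log2 ratio was −4.36 ± 0.13 (SE, adjusted p = 0.00056 by limma). In both, the libraries of the 2 kinds lay far apart. The third was uneven between replicates: the model at chr9:87962752-87967020 had 16.2 and 50.6 in RNA and 2.87 and 0 in polysome RNA. A pair of the 10 lay close together on chromosome 10, at 19910371 to 19918538 (38.5 and 34.1 in RNA, 2.35 and 2.56 in polysome RNA) and at 19935180 to 19939184 (15.4 and 17.0, then 0.519 and 0.744). The second of this pair passed the filter through the RNA libraries alone. So did the models at chr6:77282716-77285671 and chr7:1496555-1498457, listed at 0 in both polysome libraries. The calls of these models are given as a description. A model of 11008 bp at chr6:116685530-116696537 was the only one of the 10 with an m6A peak in both lists, with 30.6 and 27.7 in RNA and 0.760 and 1.33 in polysome RNA.

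Gene models listed at 0 in one kind were few. There were 47 at 0 in both RNA libraries and at 1 or more in both polysome libraries, with a highest FPKM of 17.5. Of these 47, 10 (21.3%) had a peak in both lists, which came from total RNA, against 41.3% of all tested. In reverse there were 26, with a highest FPKM of 12.3, and 0 had a peak in both lists. These 26 were short and low, with a median span of 1629 bp and a median FPKM of 2.15 in RNA, and among all tested gene models in the shortest tercile of span and the lowest of level 45 of 2406 (1.87%) had such peaks. Some exact zeros stood beside high values in the other replicate. At FPKM of at least 10 in one RNA library, 9 and 14 gene models were at 0 in the other, and for polysome libraries 2 and 5 were. The 2 largest cases, chosen after their values were seen, were the model at chr8:178109763-178111745, with 214 and 0 in RNA and 591 and 563 in polysome RNA, and the model at chr2:106007982-106009647, with 402 and 0 in RNA and 423 and 397 in polysome RNA. Neither passed the test (limma adjusted p = 0.094 and 0.19).

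The filter shaped who could be called. An FPKM of at least 1 in all 4 libraries was reached by 17180 gene models, while 1179 entered through the 2 RNA libraries alone and 184 through the 2 polysome libraries alone. Those that entered through 1 kind alone could only be called in the direction of that kind, and the counts and shares of calls include them. Just inside the filter lay the model at chr8:38922093-38922527, with 2.38 and 1.0001 in RNA and 0.755 and 0.599 in polysome RNA. Just outside lay the model at chr6:147697477-147698460, with 0.407 and 0.594 in RNA and 1.57 and 0.99998 in polysome RNA. Of the 17635 gene models not tested, 10741 were at 0 in all 4 libraries.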

How the data were processed

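Per the submitters' processing notes, Trimmomatic 0.35, HISAT2 and MACS2 were used; no source used here gives the FPKM tool, the Mo17 build, the strandedness or the handling of multiply aligned reads. The authors deposited FPKM per gene, 1 table per sample. For m6A-seq the authors deposited 1 peak list per sample, with a fold enrichment (a ratio), −log10 p and q values and a whole-number score; summits and, in 1 alternative, the fold were used. Groups came from the labels. Log2(FPKM + 1) was tested with limma 3.58.1 (R 4.3.3, trend, 2 residual degrees of freedom, Benjamini-Hochberg adjustment), after tests on simulated data. Errors marked SD are over replicate numbers 1 and 2. Same-numbered libraries did not deviate together (r = −0.035). Gene models and lists were chosen with earlier results of these data known. The rule for named gene models was the 10 most abundant of each kind, the 10 with the largest called ratio each way and the 5 most abundant called each way; identifiers are given for the first 2 each way. The 2 rows whose span differed between the Mo17 tables were left out. Alternatives were scaling, pseudocount, filter, replicate block, trend and each library left out. The tables matched no identifier of the RefSeq gene table for B73. Tables were handled with Python 3.11.15, pandas 2.3.3 and numpy 2.4.6.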

Additional observations from a re-analysis of the deposited data

Results flagged for a closer look

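The median log2 ratio of polysome to RNA FPKM was −0.36 in Mo17, with −0.36 in both replicate numbers, and 0.31 in B73, with 0.41 and 0.20. Both replicate numbers of Mo17 lay below 0 and both of B73 above it. No test was made of this difference. Summed FPKM also differed between the kinds. In Mo17 it was 665885 and 669811 in RNA and 800399 and 793281 in polysome RNA. In B73 it was 452783 and 438866 in RNA and 673882 and 693258 in polysome RNA, a wider gap. Equal sums moved the Mo17 median to −0.60, and the B73 median was taken under the deposited values alone. The sign of either median thus rests on the scaling of the deposited values, and the part of the sums in the medians was not tested.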

How the results depend on the processing

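Higher and lower counts were 2446 and 1362 with the median log ratio set near 0, and 517 and 5819 with equal sums. Leaving out 1 library gave 916 to 1307 higher and 2993 to 3748 lower. The numbers on the libraries mark no known pairing, and the replicate block gave 1052 and 3375. The median ratio was −0.0017 (median log ratio), −0.60 (equal sums), −0.39 (equal sums without the most abundant 1%), −0.43 (pseudocount 0.1), −0.28 (FPKM of at least 5), −0.23 (no filter), and −0.40 to −0.32 with 1 library left out. The level contrast was, in the same order, 1.05, 0.76, 1.07, 1.22, 1.38 and 0.31, and 0.75 to 0.89 with 1 library left out. The span contrast kept its direction under these settings, from −0.47 (no filter) to −0.92 (FPKM of at least 5), with −0.80 to −0.62 when 1 library was left out. The chromosome range was 0.095 at FPKM of at least 5 and 0.071 to 0.079 with 1 library left out. The m6A contrast of the middle tercile, whose alternatives were chosen after seeing the data, was 0.57 (equal sums without the most abundant 1%), 0.61 (pseudocount 0.1), 0.57 (FPKM of at least 5), 0.34 (no filter) and 0.38 (peaks of at least 5-fold), and 0.43 to 0.50 with 1 library left out. The 10 most abundant held 8.61% to 8.93% in RNA and 11.8% to 12.0% in polysome RNA with 1 library left out. These are the shares of the single libraries given before, so they are no further check. The 100 most abundant held 34.2% in RNA and 40.4% in polysome RNA. Among the 36 named gene models, the 10 chosen each way for the largest called ratios lay far from the threshold. A change of scaling could hardly undo their calls, so the counts that follow say little about calls in general. Of the 36, 30 kept their call throughout, and 27 kept both call and sign. Those that changed sign, the models of RNA rank 3 (0.36) and 6 (0.23) with the median log ratio set near 0, and that of RNA rank 10 with equal sums (−0.14) and without RNA replicate 1 (−0.0089), reached a log2 size of at most 0.55 under any setting, short of the threshold. The cause of these changes was not tested. Unknown depth and 2 libraries of each kind limit the precision.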
